A study of Mus musculus with 2 samples.

Results

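Chemokines are small secreted proteins that direct the movement of leukocytes, and the 10 genes described here are chemokine genes with UMIs in the epithelium or the leukocytes of mouse small intestine: Cxcl2, Cxcl10, Cxcl16, Ccl2, Ccl5, Ccl6, Ccl7, Ccl9, Ccl20 and Ccl25. They were taken by name from the 31053 gene symbols of the count tables, and all 10 were found. A single intestine per genotype was profiled by droplet single-cell RNA sequencing, which counts unique molecular identifiers (UMIs) at the 3′ end of each transcript, so levels were not divided by gene length. The Tg mouse was Mdm2+/- Cag-CreERTg and the FMTg mouse Mdm2FM/- Cag-CreERTg, both C57BL/6j and aged 60 days, with tissue taken 24 hours after a single tamoxifen injection of 6 mg per 40 g. By the series title, Mdm2 is lost and p53 activated in FMTg and Mdm2 is retained in Tg. Both mice carried the tamoxifen-inducible recombinase under the broadly active Cag promoter, both received tamoxifen, and both had 1 null allele of Mdm2, so neither is an untreated or fully wild-type control, and recombination is not limited to the epithelium. With 1 mouse and 1 library a group there is no replicate error: no test was possible, no p-value is given, and each interval below is at 95% and covers counting error only.

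Chemokines act through G protein-coupled receptors on the responding cell, and their names follow the spacing of their conserved cysteines. In the small intestine, Ccl25 from epithelium attracts lymphocytes that carry Ccr9, and Ccl20 attracts cells that carry Ccr6 to the epithelium over lymphoid follicles. Ccl2 and Ccl7 draw monocytes through Ccr2, and Cxcl2 draws neutrophils through Cxcr2. Cxcl10 is induced by interferon, Cxcl16 is made as a membrane-bound protein, and Ccl5 is made in quantity by cytotoxic lymphocytes.

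Filtering left 2913 cells in Tg and 2675 in FMTg, whose medians were 4938 and 4710 UMIs. The median mitochondrial share of kept cells was 11.7% in Tg and 14.8% in FMTg, and 50.7% and 55.5% of all barcodes exceeded the mitochondrial limit of 25%. The files share 14 barcodes, 4 of them among kept cells. Mdm2 itself was counted at 93.0 CPM in Tg, where CPM is UMIs scaled to a total of 1000000, and 142 CPM in FMTg, and these counts do not tell its alleles apart. Clustering without chemokine and receptor genes gave 24 clusters, of which 14 classes were named from marker genes and 5 clusters stayed unnamed. Of each named class's markers, all or all but 1 were detected in both libraries. The myeloid classes were smaller in FMTg: 181 Tg and 41 FMTg cells were macrophage or monocyte-like, 53 and 7 neutrophil-like, and 23 and 6 dendritic-like. Goblet-like cells numbered 121 and 44, and the unnamed, shallow cluster 11 held 122 and 16. Crypt progenitor-like cells, 10 and 37, and the other T-like cells, 78 and 221, were more numerous in FMTg. Whether these numbers follow the genotype or the preparation of each tissue cannot be told apart.

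Over all kept cells, 6 of the 10 chemokines were at least 2-fold lower in FMTg: Cxcl2, Ccl2, Ccl6, Ccl7, Ccl9 and Ccl20. Among all 14110 genes with at least 20 UMIs, 5.26% were that much lower. Cxcl10 and Cxcl16 were at least 2-fold higher, a step that 5.15% of all genes passed. The median log2 ratio of FMTg over Tg was -2.48 over the 10 chemokines and 0.06 over all genes tested. Ccl6 summed to 28710 UMIs in Tg and 4197 in FMTg, Ccl9 to 9835 and 1119, Ccl2 to 5504 and 833, Cxcl2 to 2680 and 162, and Ccl7 to 2399 and 279. Each of these myeloid chemokines was far lower in the FMTg library. The epithelial Ccl25 summed to 6262 and 2933 UMIs and Cxcl16 to 892 and 1521. Ccl5, the most abundant of the 10, held 160021 and 132263 UMIs, a log2 ratio of -0.0098 (-0.02 to 0.0007). Cxcl10 with 83 and 162 UMIs and Ccl20 with 230 and 18 were the sparsest. Ccl20 thus reached 20 UMIs through Tg alone. Under TMM scaling, DESeq2 size factors, a 50% mitochondrial limit or without the myeloid classes, 1 chemokine rather than 2 passed 2-fold higher.

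**Figure D1:**
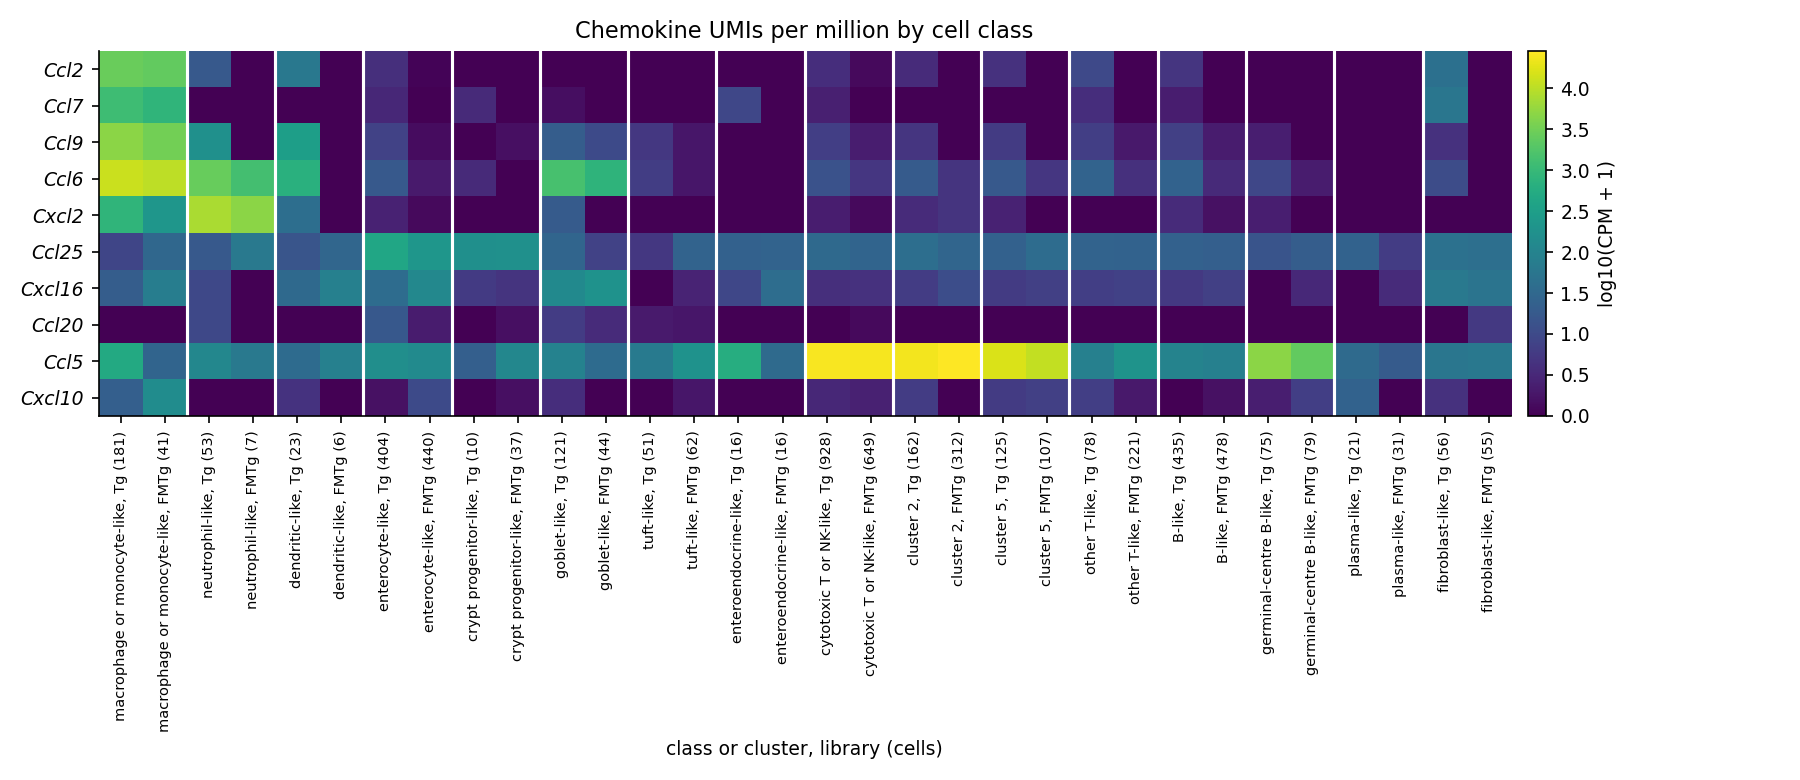
Rows are the 10 chemokine genes and columns the cell classes, Tg beside FMTg with the number of cells in parentheses; colour gives log10(CPM + 1). Ccl2, Ccl7 and Ccl9 are bright in the macrophage or monocyte-like class, Ccl6 there and in goblet-like cells, Cxcl2 there and in neutrophil-like cells, Ccl25 in the enterocyte-like class and in crypt progenitors, and Ccl5 in cytotoxic T or NK-like cells and clusters 2 and 5.

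Ccl2 and Ccl7, the monocyte attractants, lay almost entirely in a single class. Ccl2 lies at chr11:82035571-82037453 and Ccl7 at chr11:82045712-82047525 (mm10), both on the plus strand with a gap of 8258 bases between them. The macrophage or monocyte-like class held 98.2% of Ccl2 UMIs in Tg and 99.8% in FMTg, and 97.5% and 100% of Ccl7 UMIs. Tg fibroblast-like cells had 13 Ccl2 and 17 Ccl7 UMIs, a ratio of 0.76 (0.34 to 1.67). In the Tg macrophage class the ratio was 2.31 (2.20 to 2.43). Tg dendritic-like cells had 17 UMIs of Ccl2 and 0 of Ccl7. Whether these are further sources was not tested. The macrophage or monocyte-like class joined 2 clusters that differed in these genes. Cluster 8, led by Fn1, Chil3, Arg1 and Lyz2, held 160 Tg and 29 FMTg cells and nearly all of both chemokines. Cluster 20, led by C1qa, which marks tissue macrophages, held 21 and 12 cells and had 0 UMIs of Ccl2, Ccl7 and Cxcl2 in both libraries.

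Within cluster 8 Ccl2 was at 2870 CPM in Tg and 2860 CPM in FMTg, a log2 ratio of -0.0054 (-0.11 to 0.10), against -2.46 over all cells. It was detected in 139 of 160 Tg cells and 25 of 29 FMTg cells. The FMTg sum leaned on a single cell with 363 of the 831 UMIs, and without the top cell of each library the class ratio was -0.89 in place of -0.17. The median cell of cluster 8 had 11.6 Ccl2 UMIs per 10000 in Tg and 7.17 in FMTg, and the highest had 177 and 317. The FMTg cells thus span the Tg range while their middle lies lower. Ccl7 in cluster 8 was at 1243 CPM in Tg and 960 CPM in FMTg, a log2 ratio of -0.37 (-0.56 to -0.19), with 99 and 16 cells positive. Without the top cell of each library the Ccl7 ratio in the whole class was -1.01, against -0.53 with it. Ccl7 was found almost entirely in cells that also had Ccl2: 95 of 99 Ccl7-positive cells in Tg and 15 of 16 in FMTg.

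Ccl9 and Ccl6, related chemokines that act on monocytes and other leukocytes through Ccr1, lie next to each other on the minus strand, Ccl9 at chr11:83572919-83578636 and Ccl6 at chr11:83587882-83593087, with a gap of 9245 bases. Ccl9 was as confined as Ccl2, with 97.0% of its Tg UMIs and 98.1% of its FMTg UMIs in the macrophage or monocyte-like class. Ccl6 was broader, with 86.0% and 84.0% there. In cluster 8 Ccl6 was present in 160 of 160 Tg cells and 28 of 29 FMTg cells at 13119 and 11996 CPM, a log2 ratio of -0.13 (-0.18 to -0.08). Ccl9 was present in 158 and 28 of these cells at 5067 and 3751 CPM, a ratio of -0.43 (-0.53 to -0.34). The median cell had 134 Ccl6 UMIs per 10000 in Tg and 107 in FMTg, and 53.6 and 36.8 for Ccl9. Both libraries overlapped widely for both genes. All 5 of Cxcl2, Ccl2, Ccl6, Ccl7 and Ccl9 were detected together in 66 of 160 Tg cells (41.2%) and 10 of 29 FMTg cells (34.5%) of cluster 8. In cluster 20, 19 of 21 and 10 of 12 cells had none of the 5.

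**Figure D2:**
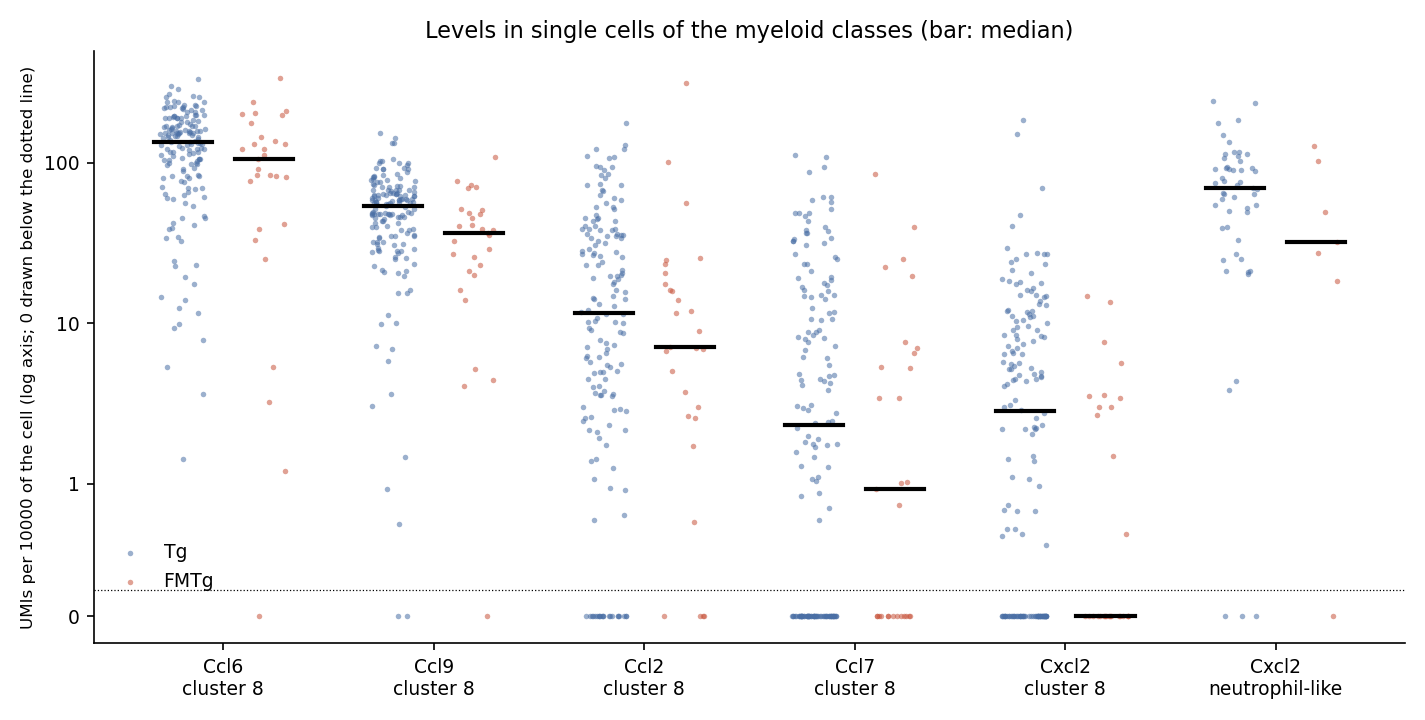
Each point is a cell, its height the gene's UMIs per 10000 of that cell on a log axis with cells at 0 drawn below the dotted line, and bars are medians. In cluster 8 the Ccl6 medians are 134 (Tg) and 107 (FMTg), the Ccl2 medians 11.6 and 7.17, and the Cxcl2 medians 2.83 and 0.

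So the much lower sums of Ccl2, Ccl6, Ccl7 and Ccl9 in FMTg went with fewer cells of the producing cluster. Their levels within it differed far less. Cxcl2 was an exception, with a log2 ratio still at -1.76 within that cluster, against -3.78 over all cells. Without the top cell of each library, the Ccl2 and Ccl7 ratios in the whole macrophage or monocyte-like class were -0.89 and -1.01. The whole class had 6.21% of Tg cells and 1.53% of FMTg cells. Within the whole class the log2 ratio was -0.17 (-0.27 to -0.06) for Ccl2, -0.27 (-0.33 to -0.22) for Ccl6, -0.53 (-0.72 to -0.35) for Ccl7 and -0.58 (-0.68 to -0.49) for Ccl9. Cluster 20 makes up a larger part of the FMTg class, 12 of 41 cells against 21 of 181, and that alone moves these class values: without it the Ccl6 ratio is -0.13 and the Ccl9 ratio -0.43. Of 9 chemokines with at least 20 UMIs in the class, 3 were at least 2-fold higher in FMTg (Cxcl10, Cxcl16 and Ccl25), where 5.29% of 7597 genes were, and 2 were at least 2-fold lower (Cxcl2 and Ccl5), where 7.35% were. Cxcl16 and Ccl25 rested there on 38 and 15 Tg UMIs and on 26 and 10 FMTg UMIs. Of the class's 991 Tg Ccl5 UMIs, 935 lay in the 20 cells that also had a UMI of Cd3, part of the T-cell receptor complex. In FMTg the class had 9 Ccl5 UMIs, so Ccl5 reached 20 UMIs through Tg alone.

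Cxcl2, the neutrophil attractant, had 2 producing classes and was the myeloid chemokine whose level within cluster 8 differed most. The gene lies at chr5:90903871-90905938 on the plus strand. In cluster 8 it was at 875 CPM in Tg and 258 CPM in FMTg, a log2 ratio of -1.76 (-2.12 to -1.43), and was detected in 104 of 160 and 12 of 29 cells. The highest Tg cell had 241 UMIs and the highest FMTg cell 21. In the whole macrophage or monocyte-like class the ratio was -1.92 (-2.28 to -1.59), and it stayed between -2.31 and -1.66 over the alternatives that gave a value. Thinned to 1000 UMIs per cell, 29.8% of Tg and 12.5% of FMTg cells of that class had a Cxcl2 UMI, against 57.5% and 29.3% at full depth. Neutrophil markers also differed within this class, with a summed level of 2777 CPM in Tg and 731 CPM in FMTg, 8 and 6 of 10 markers detected, and their part in the Cxcl2 difference was not tested.

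The neutrophil-like class had the highest Cxcl2 level of any class, 7668 CPM in Tg and 4901 CPM in FMTg. Cxcl2 was detected in 50 of 53 Tg cells and 6 of 7 FMTg cells, and the log2 ratio was -0.65 (-1.0 to -0.31). With the mitochondrial limit at 50% it was -0.14 (-0.49 to 0.20), an interval that includes 0. The median cell had 70.1 UMIs per 10000 in Tg and 32.3 in FMTg, and the 7 FMTg cells lay within the Tg range. These 7 cells held 77 UMIs, 47.5% of all FMTg Cxcl2, while the 53 Tg cells held 937 UMIs or 35.0%.

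Cxcl10, the interferon-induced ligand of Cxcr3, went the other way but rested on few cells. It lies at chr5:92346638-92348889 on the minus strand. Only 28 Tg and 26 FMTg cells had a Cxcl10 UMI. The macrophage or monocyte-like class held 42 Tg UMIs in 8 cells and 50 FMTg UMIs in 2 cells, 45 of them in a single cell. The log2 ratio in this class was 2.79 (2.16 to 3.41), and 0.58 without the top cell of each library. In enterocyte-like cells there were 8 UMIs in 4 Tg cells and 95 UMIs in 11 FMTg cells, 51 of them in a single cell of cluster 7, a log2 ratio of 3.97 (2.93 to 5.22). Without the top cell of each library 4 and 44 UMIs were left and the enterocyte ratio was 3.86. Over its 13 alternatives this ratio lay between 3.03 and 4.48.

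The 250 bases before the transcription start are shown for Cxcl2 and Cxcl10, since their ratios in the macrophage or monocyte-like class lay on opposite sides of 0. That of Cxcl10 rested on 1 cell there, and without the top cell of each library its interval included 0 (-1.19 to 2.04). They come from RefSeq on GRCm38.p6, chr5:90903649-90903898 on the plus strand for Cxcl2, whose RefSeq start lies 28 bases past the GENCODE start, and chr5:92348890-92349139 on the minus strand for Cxcl10. Capitals mark matches on either strand to GGGANNTNC (an NF-kB pattern), GAAANNGAA (an interferon-stimulated response element pattern) or GGAAGT (an ETS pattern). Of the 32851 promoter windows of this length, 12.5%, 7.13% and 19.7% hold these patterns.
Cxcl2: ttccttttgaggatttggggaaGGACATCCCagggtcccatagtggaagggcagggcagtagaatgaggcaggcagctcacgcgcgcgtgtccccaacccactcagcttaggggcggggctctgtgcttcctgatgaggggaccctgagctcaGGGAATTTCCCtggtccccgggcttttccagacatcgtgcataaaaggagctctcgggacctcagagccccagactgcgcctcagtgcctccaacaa
Cxcl10: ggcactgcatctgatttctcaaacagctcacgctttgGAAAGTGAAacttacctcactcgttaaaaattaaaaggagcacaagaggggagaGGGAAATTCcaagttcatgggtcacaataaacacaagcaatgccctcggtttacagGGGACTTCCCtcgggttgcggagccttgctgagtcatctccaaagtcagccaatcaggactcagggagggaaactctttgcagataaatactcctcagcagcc
Cxcl2 has an NF-kB pattern 97 to 89 bases before the start, a match on the other strand that overlaps it from 95 to 87, another at 228 to 220, and none of the interferon pattern. Cxcl10 has the interferon pattern at 213 to 205 and NF-kB patterns at 159 to 151 and 103 to 95 bases before the start. The last overlaps a minus-strand match at 102 to 94 and contains a minus-strand ETS pattern. A match is a stretch of letters and not a measured binding site.

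Ccl6 had another source in the epithelium that Ccl9 lacked. Goblet-like cells, which secrete the mucin Muc2, held 3130 Ccl6 UMIs in Tg and 608 in FMTg, that is 10.9% and 14.5% of all Ccl6. Ccl6 was detected in 109 of 121 Tg goblet-like cells (90.1%, 83.3 to 94.8%) and 37 of 44 FMTg cells (84.1%, 69.9 to 93.4%). In enterocyte-like cells, which were deeper in Tg with a median of 30627 UMIs against 17282 in goblet-like cells, 14.9% of Tg and 2.50% of FMTg cells had a Ccl6 UMI. The goblet-like class had 42 Tg and 7 FMTg UMIs of Ccl9 and 0 of Ccl2.

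The ratio of Ccl6 to Ccl9 was highest in goblet-like cells. It was 74.5 (55 to 104) in Tg goblet-like cells and 86.9 (41.9 to 217) in FMTg goblet-like cells. In macrophage or monocyte-like cells it was 2.59 (2.53 to 2.65) and 3.21 (3.0 to 3.44). Enterocyte-like cells had 2.49 (1.94 to 3.22) in Tg and cytotoxic T or NK-like cells 2.11 (1.31 to 3.47), values near that of the macrophage class. Tg neutrophil-like cells lay between, at 15.1 (9.71 to 24.7). The summed level of the 12 macrophage or monocyte markers was 62.7 CPM in Tg and 72.0 CPM in FMTg goblet-like cells, against 11593 and 15990 CPM in the macrophage or monocyte-like class.

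**Figure D3:**
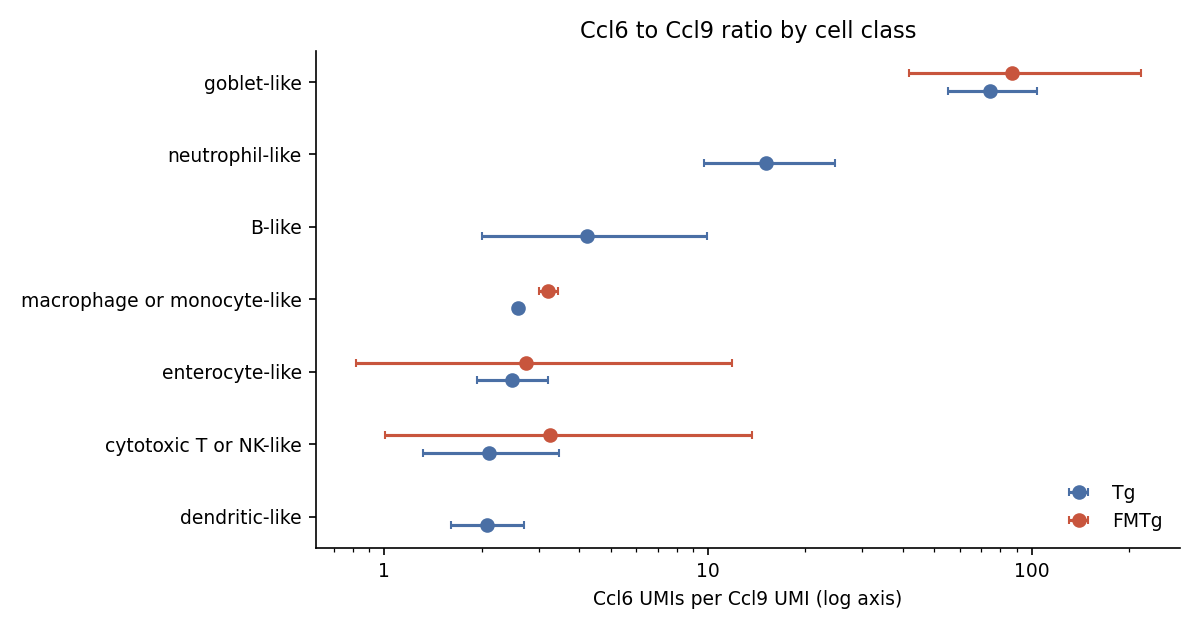
Points give Ccl6 UMIs per Ccl9 UMI in each class and library on a log axis with 95% counting intervals, for classes with at least 4 Ccl9 UMIs. Goblet-like cells sit at 74.5 (Tg) and 86.9 (FMTg), Tg neutrophil-like cells at 15.1, and the other classes between 2.08 and 4.22.

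The goblet level of Ccl6 was lower in FMTg, 1464 CPM in Tg against 782 CPM, a log2 ratio of -0.91 (-1.03 to -0.78). The median cell had 11.8 UMIs per 10000 in Tg and 4.0 in FMTg, with highest cells at 63.0 and 76.4, so the ranges overlapped. Thinned to 1000 UMIs, 65.0% (55.6 to 73.5%) of Tg and 48.8% (33.3 to 64.5%) of FMTg cells had a Ccl6 UMI, and these intervals overlap. Markers of other cell types also differed between these goblet-like cells: enterocyte markers summed to 10852 CPM in Tg and 23106 CPM in FMTg (14 of 14 detected in both), neutrophil markers to 244 and 1.29 CPM (8 and 1 of 10) and cytotoxic T or NK markers to 262 and 37.3 CPM (11 and 8 of 12). Their part in the Ccl6 difference was not tested. With equal weight per cell the ratio was -0.39, and with a 50% mitochondrial limit -0.32. Of 6 chemokines with at least 20 UMIs in goblet-like cells, 0 were at least 2-fold higher in FMTg, beside 5.13% of 6390 genes, and 4 were at least 2-fold lower (Cxcl2, Ccl5, Ccl9 and Ccl25), beside 9.05%. Those 4 had at most 199 UMIs in a library, and all 38 Cxcl2 UMIs came from a single Tg cell. Cxcl2 and Ccl9 reached 20 UMIs there through Tg alone.

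The RefSeq windows before the Ccl9 and Ccl6 starts (GRCm38.p6, chr11:83578637-83578886 and chr11:83593088-83593337, minus strand) are shown because these neighbours shared the myeloid class and differed in goblet-like cells. Capitals mark the ETS pattern GGAAGT on either strand.
Ccl9: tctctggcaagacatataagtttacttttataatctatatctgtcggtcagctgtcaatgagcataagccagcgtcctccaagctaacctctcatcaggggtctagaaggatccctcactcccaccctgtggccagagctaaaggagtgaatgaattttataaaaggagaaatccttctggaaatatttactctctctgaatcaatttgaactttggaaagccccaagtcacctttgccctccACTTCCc
Ccl6: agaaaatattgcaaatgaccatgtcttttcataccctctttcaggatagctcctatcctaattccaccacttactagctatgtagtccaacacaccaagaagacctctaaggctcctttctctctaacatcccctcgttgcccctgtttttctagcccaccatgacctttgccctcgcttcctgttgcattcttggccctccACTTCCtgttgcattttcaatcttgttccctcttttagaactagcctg
Each holds a single match to GGAAGT, on the opposite strand. It lies 7 to 2 bases before the Ccl9 start and 48 to 43 bases before the Ccl6 start. Shorter forms of the ETS pattern were not searched for. In a global alignment 135 of 286 columns were identical (47.2%), close to the 47.1% between Cxcl10 and Cxcl2, which lie on another chromosome. Pairs of the genes with a window ran from 38.1% (Ccl20 and Ccl25) to 47.2% (Ccl25 and Cxcl2), so both values lie near the top. Windows were found for 6 of the 10 genes, and Cxcl16, Ccl2, Ccl5 and Ccl7 are named only.

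Ccl25, the ligand of the gut-homing receptor Ccr9, was an epithelial chemokine with a steep difference between enterocyte clusters. It lies at chr8:4325210-4360020 on the plus strand. Enterocyte-like cells held 93.0% of its Tg UMIs and 78.9% of its FMTg UMIs. The remaining FMTg UMIs included 329 in crypt progenitor-like cells, whose Ccl25 level was 164 CPM in Tg (10 cells) and 171 CPM in FMTg (37 cells), a log2 ratio of 0.06 (-0.31 to 0.46). Cytotoxic T or NK-like cells, which lack an epithelial origin, had 32.1 and 26.9 CPM, with 14.3% and 11.6% of cells positive at median depths of 4960 and 4806 UMIs, the background share for this gene.

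Pooled over the enterocyte-like class Ccl25 was at 426 CPM in Tg and 223 CPM in FMTg, a log2 ratio of -0.93 (-1.0 to -0.86), with 92.3% and 65.0% of cells positive. Within 3 of its 4 clusters the difference was much smaller. Cluster 3, led by Slc5a12 and Lct, had 253 and 230 CPM, a ratio of -0.13 (-0.27 to 0.004). Cluster 7, led by Car4 and Reg3a, had the highest level, 619 and 568 CPM, a ratio of -0.12 (-0.22 to -0.03). Cluster 12, led by S100g and Slc40a1, had 433 and 309 CPM, a ratio of -0.49 (-0.70 to -0.29). Cluster 4, led by Clca4a and Ada, had 14.2 CPM in 23 Tg cells and 47.9 CPM in 235 FMTg cells, a ratio of 1.76 (0.51 to 3.40) from 5 and 222 UMIs. The Tg value lay below that of Tg cytotoxic T or NK-like cells, the background given above, and the FMTg value above that of FMTg ones. How much of either was background was not tested. Cluster 4, with the lowest Ccl25 level, held 235 of 440 FMTg enterocyte-like cells and 23 of 404 Tg cells. Cluster 3 was the largest in Tg with 161 cells. These numbers leave out the shallow, unnamed cluster 11, with 122 Tg and 16 FMTg cells. Ada was also among its leading genes and its best marker score was for enterocytes (1.305). Enterocyte markers summed there to 66169 CPM in Tg and 66480 CPM in FMTg. Without cluster 4 the class ratio was -0.26. With the mitochondrial limit at 50% it was -1.37, and the class had 1053 Tg and 1978 FMTg cells. With no limit and clusters matched by their cells the class had 1645 and 2216 cells. The 404 and 440 cells used here are thus a part of the enterocyte-like barcodes, and the part differed between libraries.

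**Figure D4:**
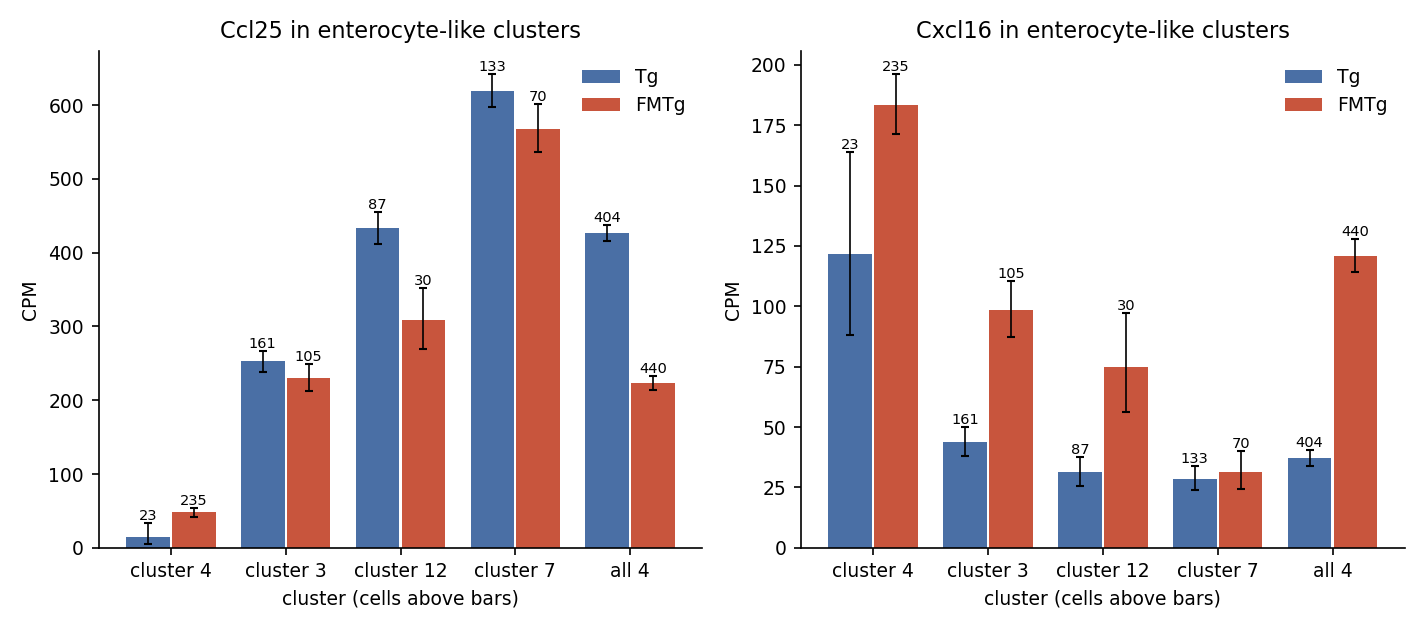
Bars give CPM of Ccl25 (left) and Cxcl16 (right) in the 4 enterocyte-like clusters and their sum, Tg blue and FMTg red, with 95% counting intervals and the number of cells above each bar. Ccl25 runs from 14.2 and 47.9 CPM in cluster 4 to 619 and 568 CPM in cluster 7, and Cxcl16 is highest in cluster 4 at 122 and 183 CPM.

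Cxcl16, a membrane-bound chemokine and the ligand of Cxcr6, ran in the opposite order to Ccl25 across the ends of these clusters. It lies at chr11:70453983-70459984 on the minus strand. Cluster 4 was highest with 122 CPM in Tg and 183 CPM in FMTg, and cluster 7 lowest with 28.6 and 31.6 CPM. Enterocyte-like cells held 56.7% of Tg and 82.4% of FMTg Cxcl16 UMIs, with 237 of 404 Tg cells and 342 of 440 FMTg cells positive. The pooled class was at 37.1 CPM in Tg and 121 CPM in FMTg, a log2 ratio of 1.71 (1.56 to 1.86). By cluster the ratio was 1.17 (0.90 to 1.43) in cluster 3, 1.26 (0.76 to 1.73) in cluster 12, 0.59 (0.15 to 1.07) in cluster 4 and 0.14 (-0.30 to 0.57) in cluster 7. Cluster 3 was at 43.9 CPM in Tg and 98.4 CPM in FMTg, and cluster 12 at 31.3 and 74.8 CPM. Without cluster 4 the pooled ratio was 1.02. The FMTg enterocyte-like cells were shallower, with a median of 19924 UMIs against 30627. Thinned to 1000 UMIs, 2.23% (1.02 to 4.19%) of Tg and 13.4% (10.4 to 17%) of FMTg cells had a Cxcl16 UMI. B-like cells, as background, had 4.56 and 5.99 CPM.

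Goblet-like cells had the highest Cxcl16 level of the larger classes, 129 CPM in Tg and 189 CPM in FMTg, a log2 ratio of 0.56 (0.26 to 0.85), with 76 of 121 and 36 of 44 cells positive. The enterocyte markers in these cells, 10852 CPM in Tg and 23106 CPM in FMTg, moved the same way, and their part in this ratio was not tested. Under other mitochondrial limits the goblet interval included 0. The ratio was 0.29 (-0.13 to 0.69) at 10%, 0.15 (-0.30 to 0.57) at 50% and 0.34 (-0.02 to 0.69) with none. The remaining alternatives gave 0.38 to 0.65. The C1qa-led cluster 20 had a higher level from few counts, 29 UMIs (384 CPM) in 21 Tg cells and 22 UMIs (464 CPM) in 12 FMTg cells, a ratio of 0.27 (-0.59 to 1.12). Cluster 8 of the same class had 4.78 and 13.8 CPM from 9 and 4 UMIs. The macrophage or monocyte-like class thus held Cxcl16 in the cluster that lacked Ccl2 and Ccl7.

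**Figure D5:**
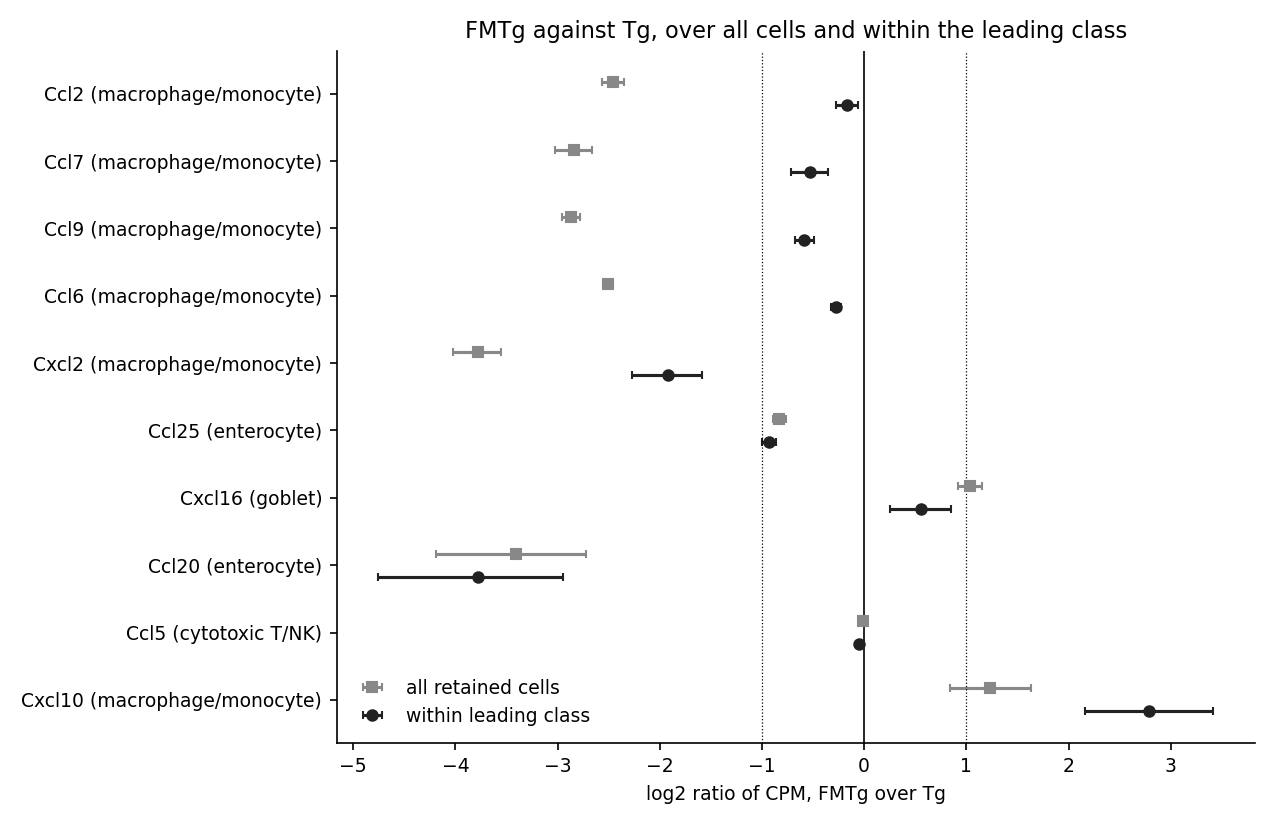
Points are log2 ratios of CPM (FMTg over Tg) with 95% counting intervals, over all kept cells (grey squares) and within the named class with the highest level among classes of at least 20 cells in both libraries (black circles); dotted lines mark 2-fold. Ccl2, Ccl6, Ccl7 and Ccl9 lie between -2.87 and -2.46 over all cells and between -0.58 and -0.17 within the macrophage or monocyte-like class.

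Ccl20, the ligand of Ccr6, was sparse and epithelial. It lies at chr1:83116766-83119167 on the plus strand. Of 230 Tg UMIs, 217 lay in enterocyte-like cells, and 179 of these in a single cell of cluster 7. FMTg had 18 UMIs in all, 12 of them in enterocyte-like cells and at most 4 in a cell. The enterocyte log2 ratio was -3.78 (-4.75 to -2.94), and -1.85 without the top cell of each library, from 38 and 8 UMIs. At resolution 2, where fewer cells had the name, 35 and 10 UMIs were left and the ratio was -1.31. Ccl20-positive enterocyte-like cells numbered 25 of 404 in Tg and 7 of 440 in FMTg. The largest group of them was cluster 12, with 15 of 87 Tg cells and 2 of 30 FMTg cells. Goblet-like cells had 11 and 2 UMIs in 8 and 2 cells. After thinning to 1000 UMIs 1 Tg and 0 FMTg enterocyte-like cells were positive, so the shares cannot be compared at matched depth.

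In the enterocyte-like class all 10 chemokines reached 20 UMIs. At least 2-fold higher in FMTg were 2 (Cxcl10 and Cxcl16), beside 6.65% of 10456 genes, and at least 2-fold lower were 6 (Cxcl2, Ccl2, Ccl6, Ccl7, Ccl9 and Ccl20), beside 3.97%. Cxcl10 reached 20 UMIs through FMTg alone and these 6 through Tg alone, so the filter nearly fixed their direction. For 5 of these 6, the myeloid ones, the counts were low: Ccl6 had 224 Tg and 11 FMTg UMIs, Ccl9 90 and 4, Ccl2 41 and 1, Ccl7 29 and 0, and Cxcl2 23 and 3. The top Tg cell for each gene held 110 UMIs of Ccl6, 48 of Ccl9 and 25 of Ccl2. Beside them, the Ccl6 to Ccl9 ratio in Tg enterocyte-like cells was 2.49, against 2.59 in Tg macrophage or monocyte-like cells. All 5 myeloid chemokines were also lower over all FMTg cells. Where these enterocyte-like UMIs came from was not tested.

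Ccl5, a T-cell and NK-cell chemokine that binds Ccr1, was the most even of the 10 between libraries. It lies at chr11:83525778-83530518 on the minus strand. In cytotoxic T or NK-like cells it was detected in 923 of 928 Tg cells and 648 of 649 FMTg cells, at 26384 and 25419 CPM. The log2 ratio was -0.05 (-0.07 to -0.04), and other settings gave -0.09 to 0.04, on both sides of 0. The median cell had 251 UMIs per 10000 in Tg and 233 in FMTg.

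Other lymphocyte clusters differed more, in both directions. Cluster 2, led by Mcpt1 and Trdc, had Cd3 UMIs in 96.3% of its Tg and 98.7% of its FMTg cells. Its leading genes held more mast cell markers (Mcpt1, Mcpt2 and Cpa3) than cytotoxic T or NK markers, so it stayed unnamed. Its Ccl5 level was 23788 CPM in Tg and 28757 CPM in FMTg, a log2 ratio of 0.27 (0.25 to 0.30). The median cell had 254 UMIs per 10000 in Tg and 275 in FMTg, and the lower quartiles lay further apart, at 84.5 and 204. Cluster 5, led by Il22 and Cd8b1, had 16177 and 11120 CPM, a ratio of -0.54 (-0.59 to -0.49), with 113 of 125 and 81 of 107 cells positive. It stayed unnamed, with nearly equal innate lymphoid (1.85) and cytotoxic T or NK (1.73) marker scores. Cytotoxic T or NK markers summed to 22605 CPM in Tg and 10258 CPM in FMTg in cluster 5, and to 44088 and 38440 CPM in cluster 2. Their part in these Ccl5 ratios was not tested. The other T-like class, led by Lef1, had 85.8 and 195 CPM, against 97.0 and 85.0 CPM in B-like cells. In some other classes most Ccl5 lay in cells that had Cd3 as well: of the germinal-centre B-like UMIs 3578 of 3589 in Tg and 2067 of 2081 in FMTg lay in cells with a Cd3 UMI, which were 33.3% and 26.6% of that class. In enterocyte-like cells 1929 of 2162 and 1269 of 1415 Ccl5 UMIs did. Several classes did not follow this. In B-like cells 11 of 149 Tg and 9 of 142 FMTg UMIs lay in cells with Cd3, and in fibroblast-like cells 2 of 17 and 2 of 13. The unnamed cluster 15, whose best-scoring markers were those of B cells, had 1 of 25 Tg and 3 of 113 FMTg UMIs in such cells. The log2 ratio of cluster 15 was 1.71 (1.08 to 2.40), and 94 of its FMTg UMIs came from a single cell.

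The receptors of these chemokines were followed from a list of 22, of which 16 had at least 20 UMIs over all cells. At least 2-fold lower in FMTg were 3 (Cxcr2, Ccr1 and Ccr2) and higher was 1 (Ccr4), beside 5.26% lower and 5.15% higher among all genes, with a median log2 ratio of 0.07 over the 16 and 0.06 over all genes. Ccr4 here, and Cxcl14 and Ccl21a below, fall outside the naming rule and were named after their values were seen. Ccr2, the receptor of Ccl2 and Ccl7, had 1664 and 255 UMIs, but 761 and 648 CPM in macrophage or monocyte-like cells, a ratio of -0.23 there against -2.44 over all cells. Ccr1 had 417 and 373 CPM in that class. Cxcr2 had 145 and 31 UMIs in all. The receptors on lymphocytes were nearer to even: Ccr9, the receptor of Ccl25, had 1487 and 1312 UMIs (0.08), Cxcr6, that of Cxcl16, 1133 and 1109 (0.23), Ccr6, that of Ccl20, 259 and 282 (0.39) and Cxcr3, that of Cxcl10, 261 and 221 (0.03). Ccr6 was highest in B-like cells at 134 and 130 CPM. Cxcr4 (-0.01), Cxcr5 (0.51), Ccr7 (0.74), Ccr10 (0.91), Ccrl2 (-0.34), Cx3cr1 (0.05) and Ackr4 (0.25) made up the rest with at least 50 UMIs.

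Among 27 other chemokine genes listed, 26 were in the files and 17 had at least 20 UMIs. At least 2-fold lower in FMTg were 6 (Cxcl3, Cxcl14, Pf4, Ppbp, Ccl12 and Ccl24), higher was 1 (Ccl21a), and the median was -0.59. These counts stand beside 5.26% and 5.15% of all genes, whose median was 0.06. Cxcl14, with 24 and 5 UMIs, and Ccl21a, with 1 and 39, each reached 20 UMIs through 1 library alone. Those highest in the macrophage or monocyte-like class were mixed. Pf4 had a log2 ratio of -2.15 over all cells and 0.13 in the class, Ccl12 -2.27 and -0.03, Ccl24 -2.47 and -0.24, Ppbp -1.61 and 0.68, and Cxcl3, a close relative of Cxcl2, -2.85 and -0.50. Ccl3 showed no such contrast, at -0.70 over all cells and -0.66 in the class. Ccl8, at 20 and 32 UMIs, was higher in FMTg on both counts, 0.94 and 3.39, with 8.17 and 85.8 CPM in the class. Cxcl9 (-0.83 and 0.63) and Cxcl14 (-2.0 and 0.77) rested there on at most 17 UMIs a library. Ccl3 and Ccl4 (-0.25), which cytotoxic lymphocytes also make, Xcl1 (0.26) and the epithelial Cx3cl1 (0.25), Ccl28 (0.27) and Ccl27a (0.11) lay within 2-fold over all cells, as did Cxcl1 (-0.08), Cxcl9 and Ccl8.

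The genes whose levels ran most like each chemokine were ranked by Pearson's r of log2(CPM + 1) over 39 profiles of a cluster in a library, among 10377 genes, as a description in which profiles share libraries and depth. Ccl2 and Ccl7 ranked each other highest (r = 0.88), and Ccl6 ranked Ccl9 highest (0.88), while Ccl9 ranked F10 (0.91) before Ccl6. Cxcl2 ran with Clec4e (0.93), Wfdc21 (0.92) and Clec4d (0.92), genes of the myeloid clusters. Ccl5 ran with Gzma (0.97), a granule protease, then Clnk and Tcrg-C4 (both 0.95). Ccl25 ran with Slc26a3 (0.90), the chloride exchanger, Lrat (0.86) and Reg3a (0.85). Cxcl16 had Hbegf (0.78), Ccl20 Tmem171 (0.73) and Cxcl10 Msr1 (0.64), lower top values than those of the other members.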

How the data were processed

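The 10x Genomics 3′ libraries of Tg and FMTg small intestine were analysed. The values are raw UMI counts per gene symbol and barcode as deposited by the authors. Per the submitters' processing notes, the tools were CASAVA 1.8.1 and Cell Ranger 3.0, with mm10 as the build. Depth was 54013005 UMIs over 6270 barcodes in Tg and 49805718 over 6382 in FMTg.

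The filters asked for 500 UMIs, 300 genes and no more than 25% mitochondrial UMIs (passed by 3067 and 2819 barcodes), and the 154 and 144 with the highest scrublet scores (scanpy 1.11.5) were removed as doublets, a rate of 0.8% per 1000 barcodes. Cells of both libraries were jointly clustered from 2000 variable genes, without chemokine, receptor, p53-target, cell cycle, stress, interferon, ribosomal or mitochondrial genes, with 30 principal components, 20 neighbours and leidenalg 0.10.2 at resolution 1. Clusters were named from marker lists, with at least 3 markers detected. A score of at least 0.5, a margin of 0.2 to the next type and, for epithelial names, more Epcam than Ptprc were rules added with the clusters in view, so class names are rebuilt and may differ from the study's.

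UMIs were summed per class and library and scaled to the class total (CPM). Sums have exact Poisson, shares exact Clopper-Pearson and ratios exact conditional binomial intervals at 95%. The leading class is the named class with the highest mean CPM among those with at least 20 cells in each library, which leaves out neutrophil-like cells. UMIs are molecules by design, yet intervals cover counting error only. The ratio was tested on simulated counts. Gene positions are from GENCODE vM21 and promoter windows from RefSeq. The 10 genes are always named. Other chemokines and receptors are named from 50 UMIs, with the receptors of the 10 genes, and 1 listed receptor is not reported here. The 3 most similar genes were ranked among those with at least 200 UMIs. The genes, lists, markers and alternatives were chosen with earlier results of these data known. Scripts used scikit-learn 1.9.0, scipy 1.17.1 and numpy 2.4.6 under Python 3.11.15, with pandas 2.3.3. In R 4.3.3, edgeR 4.0.16 and DESeq2 1.42.0 gave scaling factors only. Alternatives covered the mitochondrial limit, UMI minimum, doublets, scaling, cell weights, resolution, variable genes, top cells and thinning, and 5 more were added after seeing the data.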

Additional observations from a re-analysis of the deposited data

How the results depend on the processing

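Of 207 values recomputed under an alternative, 136 moved by less than their counting interval (counts of genes by less than 1.5 times) and 71 by more; no value past 2-fold changed sign. No paired analysis was possible because each group has 1 library and the labels number no replicates. The class values below are log2 ratios of FMTg over Tg in each gene's leading class, and the cause of their shifts was not tested except where stated. With no mitochondrial limit the Fn1-led cluster lost its name and the macrophage class was the C1qa-led cluster alone, which gave Cxcl10 0.20 and Ccl6 0.47 from 7 UMIs or fewer a library, beside Ccl5 0.037 and Ccl25 -1.06; Cxcl2, Ccl2, Ccl7 and Ccl9 gave no value there. With classes matched by their cells instead, it gave Ccl2 -0.33, Ccl5 -0.091, Ccl6 -0.65, Ccl7 -0.87, Ccl9 -0.98 and Ccl25 -1.19. A 50% limit gave Cxcl16 0.15, Ccl2 -0.040, Ccl5 0.021, Ccl6 -0.43 and Ccl25 -1.37, the same with matched classes but for Ccl5 at -0.080. A 10% limit gave Ccl2 0.18, Ccl5 -0.00027, Ccl6 -0.15, Ccl7 -0.26 and Ccl9 -0.39, and no value for Ccl20. Equal weight per cell gave Cxcl2 -2.31, Cxcl10 2.06, Ccl2 -0.37, Ccl5 -0.033, Ccl6 -0.48, Ccl7 -0.89, Ccl9 -0.76 and Ccl25 -1.09. Without the top cell of each library, Cxcl10 was 0.58, Ccl2 -0.89, Ccl6 -0.39, Ccl7 -1.01 and Ccl20 -1.85. Without cluster 20, Ccl2 was -0.0054, Ccl6 -0.13 and Ccl9 -0.43, and without cluster 4, Ccl25 was -0.26. Resolution 2 gave Ccl5 0.032, Ccl20 -1.31 and Ccl25 -1.17. Ccl5 was also -0.00079 with a 1000 UMI minimum, 0.024 with doublets kept, -0.071 with chemokine genes among the variable genes, 0.036 with TMM scaling and 0.037 with DESeq2 size factors, and Ccl6 was -0.22 with TMM scaling. Thinned to 1000 UMIs, the share of enterocyte-like cells with a UMI differed by -0.25 percentage points for Ccl20 (-4.60 at full depth) and -13.1 for Ccl25 (-27.3). Members at least 2-fold higher over all cells numbered 1 with a 50% limit, TMM scaling, DESeq2 size factors or without myeloid cells, and 2 otherwise. Those at least 2-fold lower numbered 6 or 7. Depth limits Cxcl10 and Ccl20, where 1 cell held a large part of the UMIs, and the 7 FMTg neutrophil-like cells.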
